A study of Mus musculus with 28 samples.

Results

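The genes described here are the variable and constant genes of the mouse immunoglobulin loci, chosen by their annotated biotype: every gene listed as IG_V_gene or IG_C_gene. The rule gave 231 genes in each of the 3 tables of expression values, out of 54163 genes for liver at 40 d, 54189 for muscle at 40 d and 54501 at 24 h. They comprised 218 variable genes (113 heavy-chain genes on chromosome 12, 102 kappa genes on chromosome 6 and 3 lambda genes on chromosome 16) and 13 constant genes (8 heavy, 1 kappa and 4 lambda). The biotype alone decides membership, but the set was taken up with results of these libraries known, so levels and treatment differences are given as descriptions.

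Liver and muscle RNA was sequenced from male Lepob/Lepob C57BL/6J mice, which lack functional leptin and become obese. From 4 weeks of age the mice, 30 in all, ate the AMLN diet for 20 weeks, with 40% of calories from fat, 20% of calories from fructose and 2% cholesterol by weight. They then stayed on that diet while receiving daily intraperitoneal injections of aspirin at 3.0 mg/kg/day together with trimetazidine at 5.0 mg/kg/day (the combination), or of the solvent alone (the vehicle). Genotype and diet were shared by all groups, so no lean or chow-fed mouse stands beside them here. At 40 d each tissue had 6 vehicle libraries (numbered 2_1, 2_3, 2_4, 2_5, 3_2 and 6_1) and 6 combination libraries (4_5, 5_1, 5_2, 5_3, 5_4 and 5_5), and at 24 h there was 1 library per tissue and treatment. The question posed by the design is what the combination does to gene expression in both tissues after 24 h and after 40 d.

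An antibody is built from paired heavy and light chains, and light chains come as kappa or lambda. For each chain, a B cell rearranges its DNA to join a variable segment to a joining segment, with a diversity segment between them in heavy chains. The constant part is added by RNA splicing. A B cell therefore passes its choice of variable genes on to its descendants. The heavy constant gene sets the class: Ighm for IgM, Ighd for IgD, the Ighg genes for IgG, Igha for IgA and Ighe for IgE. Reads were counted per gene, without the joins, so whether the reads of a variable gene come from related B cells was not tested. Plasma cells, the antibody-secreting descendants of B cells, hold very large amounts of these transcripts, and liver and muscle contain few of either cell. In RNA from whole tissue, more cells of a type and more RNA per cell cannot be told apart.

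Libraries held 16060699 to 19920148 reads on genes, and the 231 genes took 628 to 5079 of them per liver library and 1013 to 2900 per muscle library at 40 d, and 1835 to 11959 at 24 h. Hence 0.0035% to 0.0745% of a library carries everything that follows, and counting error is large for single variable genes. The tissue labels held against their markers: Alb, the serum albumin of hepatocytes, was at 12000 to 26200 FPKM in the 40 d livers and 1.58 to 98.03 in the 40 d muscles, and Acta1, skeletal muscle actin, was at 14910 to 30260 FPKM in muscle and at most 2.99 in liver. FPKM divides a gene's reads by its exonic length and by the depth of the library, so levels of different genes can be compared within a table.

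The variable genes that the results turn on are shown here as germline sequence, so that the likeness of neighbouring genes can be read directly. Each line gives 150 coding bases, 5′ to 3′, ending at the conserved cysteine codon near the end of the segment. They were read from the GENCODE M21 transcripts on build GRCm38. Capitals mark bases that differ from the closest other variable gene of the chain. Igkv4-59, Igkv17-121, Igkv1-110 and Iglv2 are instead marked against the gene printed just above each. Igkv4-86 and Ighv4-1 come first because they took nearly all variable reads of 1 muscle. Igkv17-127 and Ighv1-74 led a vehicle muscle. Igkv1-117 and Igkv1-110 led most livers, and Iglv1 led the lambda chain.
Igkv4-86 (chr6:68910433-68910582, minus strand): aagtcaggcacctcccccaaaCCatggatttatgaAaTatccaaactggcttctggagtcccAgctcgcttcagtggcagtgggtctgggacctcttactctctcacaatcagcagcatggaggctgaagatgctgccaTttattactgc
Igkv4-59 (chr6:69438243-69438392, minus strand): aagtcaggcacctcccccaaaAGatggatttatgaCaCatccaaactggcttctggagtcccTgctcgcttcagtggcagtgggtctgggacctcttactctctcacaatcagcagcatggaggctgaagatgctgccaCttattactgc
Ighv4-1 (chr12:113948290-113948439, minus strand): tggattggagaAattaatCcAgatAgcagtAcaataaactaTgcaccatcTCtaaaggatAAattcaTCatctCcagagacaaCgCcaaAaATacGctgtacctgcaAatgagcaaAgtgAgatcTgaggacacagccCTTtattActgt
Igkv17-127 (chr6:67861487-67861636, plus strand): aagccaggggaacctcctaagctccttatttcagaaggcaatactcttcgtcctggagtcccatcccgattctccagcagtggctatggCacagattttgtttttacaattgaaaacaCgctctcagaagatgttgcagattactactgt
Igkv17-121 (chr6:68037146-68037295, plus strand): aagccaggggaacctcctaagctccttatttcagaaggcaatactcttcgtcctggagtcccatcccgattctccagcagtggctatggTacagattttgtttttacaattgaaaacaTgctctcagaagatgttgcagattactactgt
Ighv1-74 (chr12:115802654-115802803, minus strand): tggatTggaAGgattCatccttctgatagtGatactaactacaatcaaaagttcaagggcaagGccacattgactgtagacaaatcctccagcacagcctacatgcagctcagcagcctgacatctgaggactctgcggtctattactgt
Igkv1-117 (chr6:68121655-68121804, plus strand): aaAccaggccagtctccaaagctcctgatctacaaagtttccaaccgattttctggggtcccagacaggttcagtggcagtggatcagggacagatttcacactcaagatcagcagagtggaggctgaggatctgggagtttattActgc
Igkv1-110 (chr6:68271095-68271244, plus strand): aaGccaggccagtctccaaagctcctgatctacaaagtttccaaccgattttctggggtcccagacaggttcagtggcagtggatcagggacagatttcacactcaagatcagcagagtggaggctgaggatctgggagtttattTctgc
Iglv1 (chr16:19085041-19085190, minus strand): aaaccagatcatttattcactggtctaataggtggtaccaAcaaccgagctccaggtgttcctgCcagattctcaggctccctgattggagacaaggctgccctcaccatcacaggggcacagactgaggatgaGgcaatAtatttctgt
Iglv2 (chr16:19260425-19260574, minus strand): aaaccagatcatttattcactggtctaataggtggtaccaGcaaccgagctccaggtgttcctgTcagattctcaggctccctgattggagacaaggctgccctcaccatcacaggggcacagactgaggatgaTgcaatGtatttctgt
In these 150 bases Igkv4-86 differed from Igkv4-59 at 6 positions, and Ighv4-1 from its closest gene, Ighv11-2, at 27. Igkv1-117 and Igkv1-110 differed at only 2, as did Igkv17-127 and Igkv17-121, while Iglv1 and Iglv2 differed at 4. Over whole coding sequences the median identity of the 218 variable genes to their closest relative was 94.6%, and 36 genes were at 97% or more. Reads from such near copies could be split between them by the counting, so the values of Igkv1-117, Igkv1-110 and similar genes are uncertain as single genes. Igkv4-86, at 89.5% identity with its closest gene, and Ighv4-1, at 76.5%, are the most distinct of those shown.

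In liver at 40 d the summed constant-gene level was 41.8 ± 10.9 FPKM (SD, n = 6) with vehicle and 111.5 ± 69.4 FPKM (SD, n = 6) with the combination, a ratio of group means of 2.66. The vehicle livers ran from 24.99 through a median of 45.2 to 53.1 FPKM and the treated livers from 23.8 through 119.3 to 193.9 FPKM. The higher mean came from 4 of 6 treated livers, numbered 4_5, 5_1, 5_3 and 5_5 at 166.6, 193.9, 152.3 and 86.3 FPKM, whereas 5_2 and 5_4 were at 23.8 and 45.96. The groups therefore overlapped, and the spread among treated livers was about as large as the difference.

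Igkc, the single kappa constant gene (chr6:70726435-70726966, plus strand, a single exon), was the most abundant member in liver. Its level in the vehicle livers was 29.4 FPKM in 2_1, 32.7 in 2_3, 30.4 in 2_4, 18.5 in 2_5, 12.1 in 3_2 and 28.4 in 6_1. In the treated livers it was 110.2 FPKM in 4_5, 122.2 in 5_1, 14.8 in 5_2, 108.0 in 5_3, 30.5 in 5_4 and 59.4 in 5_5. The same 4 treated livers stood above every vehicle liver, and 5_2 and 5_4 lay inside the vehicle range. The log2 fold change on log2(FPKM + 1) was 1.26 (SE 0.47), with an adjusted p of 0.2754 by limma.

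Limma's moderated test with a trend, with Benjamini-Hochberg adjustment over all genes tested, needed a level of 1 FPKM or more in 6 or more of the 12 livers. Only 10 of the 231 genes reached that level in liver, and 0 of the 10 passed an adjusted p of 0.05, by limma on log2 values or by limma's voom on reads, beside 0.255% of the 10995 genes tested. At an unadjusted p under 0.05 there were 5 of 10 members, all higher with the combination, beside 13.23% of all genes. The vehicle and combination ranges separated for 0 of 10 members, beside 1.16% of all genes. The 10 had a median log2 fold change of 0.82 against −0.003 over all genes, but a gene could reach the level through the treated livers alone, so neither count is evidence of a direction.

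Among the heavy-chain constant genes of liver, Igha, Ighg2b and Ighg1 were above every vehicle value in the same 4 treated livers, and Ighm was above the vehicle range only in 4_5, at 13.4 FPKM. Igha, which encodes the IgA heavy chain (chr12:113254830-113260236, minus strand), was at 1.05 to 3.10 FPKM with a median of 2.18 in vehicle livers. In the treated livers it was 10.7 in 4_5, 22.2 in 5_1, 2.45 in 5_2, 10.9 in 5_3, 2.75 in 5_4 and 5.69 in 5_5. Igha had the smallest adjusted p of any member, 0.1749 by limma, with a log2 fold change of 1.42 (SE 0.41). In 5_1 its level exceeded that of every other heavy constant gene.

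The IgG genes varied in level. Ighg2b was at 1.29 ± 0.46 FPKM (SD, n = 6) with vehicle and 4.80 ± 3.47 (SD, n = 6) with the combination, with a log2 fold change of 1.10 (limma adjusted p 0.2376). Ighg2c, a further IgG2 gene, was at 2.89 ± 1.57 and 5.78 ± 3.89 FPKM (SD, n = 6 each), with a log2 fold change of 0.63 (limma adjusted p 0.5482). Ighg1 lay below the level needed for the test: its vehicle values ran from 0.283 to 0.729 FPKM and its treated values from 0.719 to 3.25, so the groups overlapped by a single pair of libraries. Ighg3 was at 0.0624 to 0.450 FPKM with vehicle and 0.0212 to 3.01 with the combination, highest in 4_5. Ighe, the IgE gene, had 3 reads in 5_1, 5 in 5_4 and none in the other 10 livers.

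Ighm (chr12:113418558-113422730, minus strand), the class that naive and marginal zone B cells carry, was at 6.98 ± 1.70 FPKM (SD, n = 6) with vehicle and 7.57 ± 3.59 (SD, n = 6) with the combination. Its log2 fold change was 0.01 (SE 0.26, limma adjusted p 0.9896), and treated liver 5_2 was the lowest of all at 2.65 FPKM. Ighd, which B cells co-express with Ighm before class switching, was at 0.575 ± 0.247 and 0.692 ± 0.243 FPKM (SD, n = 6 each). For both genes the group means lay closer together than 1 SD.

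The class composition of the liver libraries was as follows, with no test run on shares. Ighm made up 34.1% to 64.0% of the summed heavy constant FPKM in vehicle livers (median 47.3%) and 15.4% to 41.5% in treated livers (median 27.2%). The shares of Igha were 8.34% to 21.1% with vehicle and 19.9% to 42.0% with the combination, and those of the 4 Ighg genes together were 23.9% to 45.0% and 30.9% to 50.7%. These ranges overlapped for all 3 classes. Treated livers 5_2 and 5_4, which had low totals, also had Igha shares of 31.3% and 19.9%. Shares of a sum depend on one another, so a low share of one class goes with a high share of another.

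**Figure D1:**
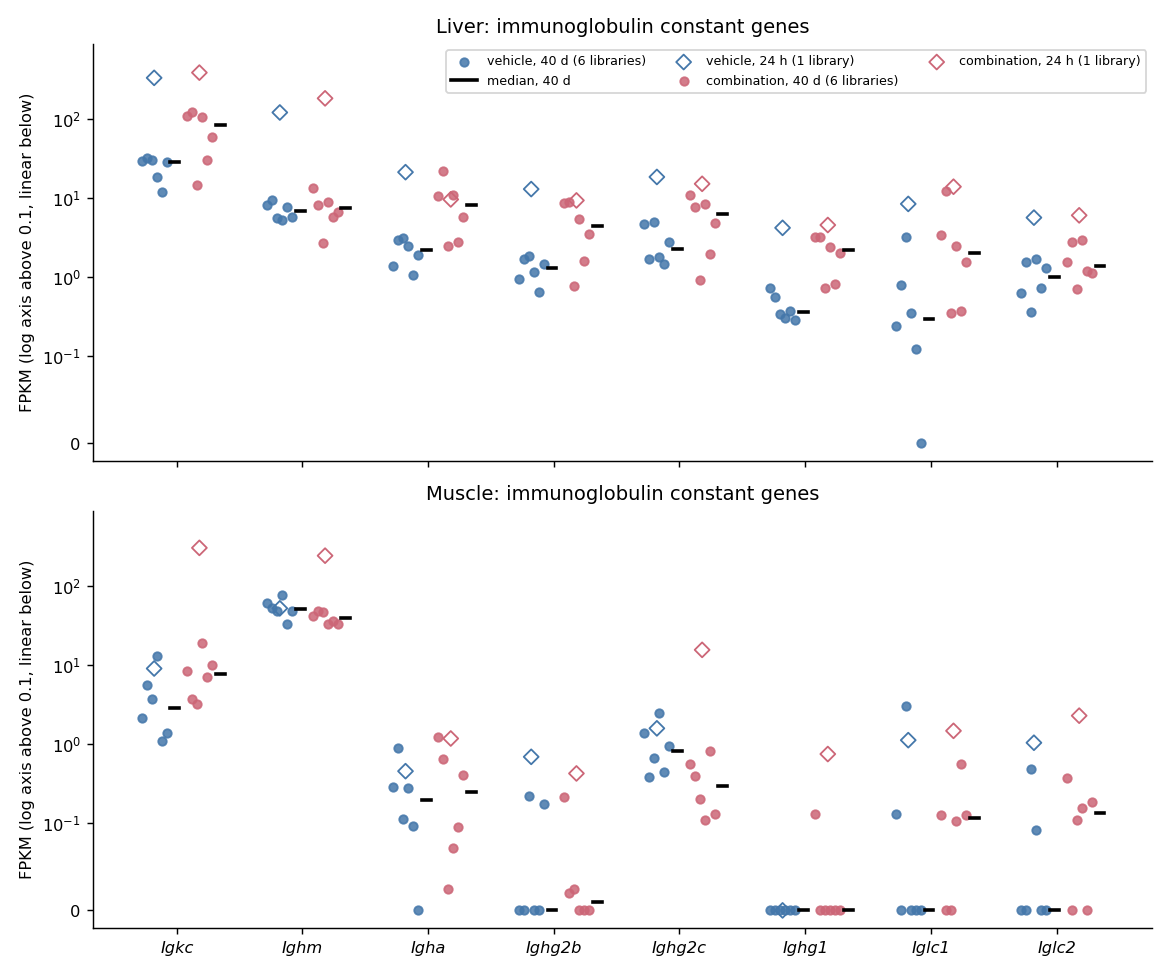
Level of 8 immunoglobulin constant genes (FPKM, logarithmic above 0.1 and linear below) in liver (top) and muscle (bottom). Filled points are 40 d libraries, 6 per treatment, black bars their medians, and open diamonds the single 24 h libraries. In liver the treated points for Igkc run from 14.8 to 122.2 around the vehicle range of 12.1 to 32.7, and in muscle Ighm lies above Igkc in every 40 d library.

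**Figure D2:**
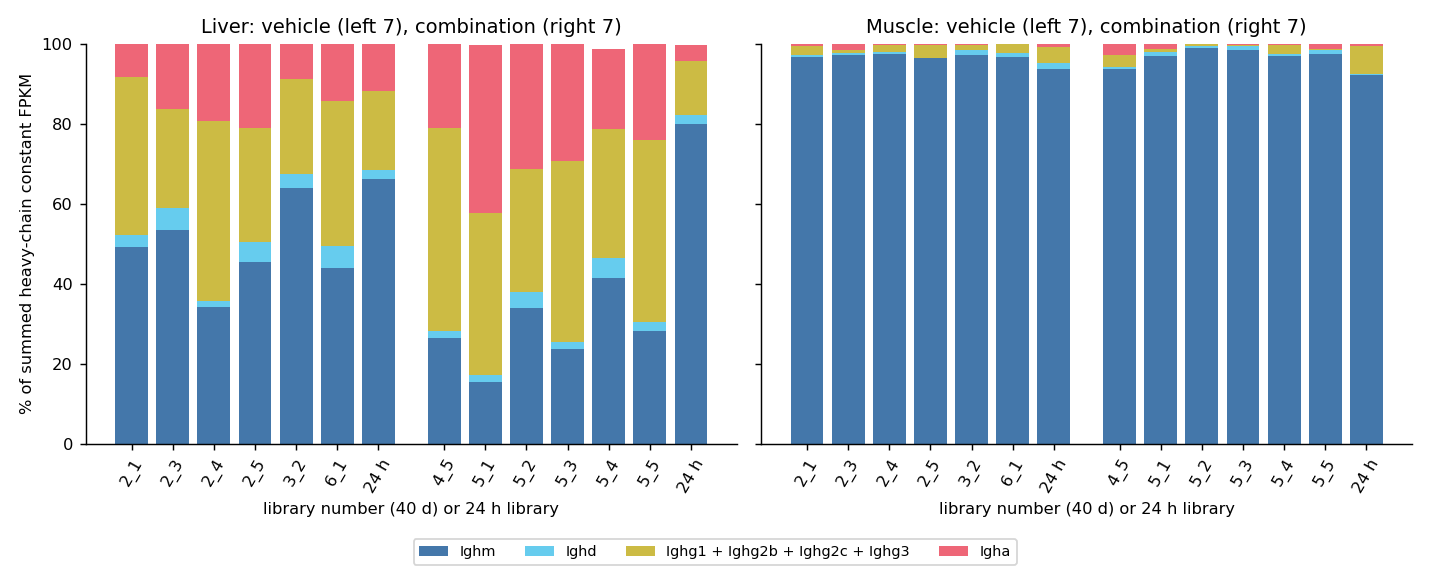
Share of each heavy-chain class in the summed heavy constant FPKM (%), by library, for liver (left) and muscle (right). Ighe, where present, makes up the remainder to 100%. Ighm takes 15.4% to 64.0% in the 40 d livers and 93.7% to 98.9% in the 40 d muscles.

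The lambda light chain is a minor one in mice. Its constant genes summed to 0.853 to 3.64 FPKM in vehicle livers and 1.17 to 18.9 in treated livers. They gave 3.58% to 11.01% of light-chain constant FPKM with vehicle and 4.77% to 13.4% with the combination. Treated liver 5_1 was the highest, with Iglc1 at 12.4 FPKM and Iglc3 at 3.75. Iglc2 was at 1.04 ± 0.55 FPKM with vehicle and 1.72 ± 0.94 with the combination (SD, n = 6 each, log2 fold change 0.39, limma adjusted p 0.4949), and Iglc4 had no read in any 40 d library. Iglc2 shares 38 exonic bases with Iglj2 and Iglc3 shares 93 with an antisense transcript, so part of their reads is of uncertain origin.

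Variable genes gave the same picture across liver libraries. Reads fell on 177 of 218 variable genes in at least 1 liver at 40 d, 48 to 71 per vehicle library and 54 to 130 per treated library. The summed variable-gene level was 27.2 ± 7.4 FPKM with vehicle and 88.5 ± 64.4 with the combination (SD, n = 6 each). The number of genes seen rises with the number of variable reads, which was 110 to 230 with vehicle and 143 to 1365 with the combination.

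Of the liver variable genes tested, none passed either. Iglv1 was at 1.36 ± 1.07 FPKM with vehicle and 7.07 ± 8.28 with the combination (SD, n = 6 each, log2 fold change 1.31, limma adjusted p 0.3521), with 22.6 FPKM in 5_1. Igkv1-117 was at 1.10 ± 0.97 and 4.69 ± 5.39 (SD, n = 6 each, log2 fold change 1.01, limma adjusted p 0.4458), with 12.8 FPKM in 4_5. Igkv1-110, its near copy, was at 1.64 ± 0.63 and 2.21 ± 1.25 (SD, n = 6 each, log2 fold change 0.22, limma adjusted p 0.7392) and was, with Igkv10-96, 1 of 2 variable genes with reads in all 12 livers. Igkv5-39 was at 0.682 ± 0.507 and 1.60 ± 0.90 FPKM (SD, n = 6 each, log2 fold change 0.62, limma adjusted p 0.3066). The heavy variable genes with the highest mean were Ighv1-53, Ighv6-3, Ighv1-26, Ighv9-3 and Ighv1-82, at 0.762 to 0.937 FPKM over the 12 livers, too low to be tested.

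No single variable gene dominated a liver. The leading heavy gene took 7.32% to 25% of heavy variable reads (median 12.6% with vehicle and 11.6% with the combination, n = 6 each). The leading kappa gene took 5.597% to 20.0% of kappa variable reads (median 14.5% with vehicle and 8.92% with the combination). Igkv1-117 led in 4 livers and Igkv1-110 in 3, and 10 different heavy genes led the 12 livers. The highest kappa share was that of Igkv1-117 in treated liver 4_5, with 98 of 491 reads (20.0%, 95% Wilson interval 16.7% to 23.7%). Such intervals cover counting error only, and reads from copies of 1 molecule are not independent.

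The evenness of usage can be given as an effective number of genes, the inverse of the chance that 2 reads of a library fall on the same gene. In liver it was 11.05 to 41.64 for heavy and 13.47 to 43.58 for kappa genes. For kappa it was 13.47 to 32.3 in vehicle livers (median 21.07). Among the treated livers with the most kappa variable reads it was 16.56 in 4_5 (491 reads), 26.79 in 5_1 (734 reads), 39.81 in 5_3 (321 reads) and 43.58 in 5_5 (268 reads). The lowest and the highest treated values are among these livers, and the groups overlapped.

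The lambda chain was different because it has only 3 variable genes. Iglv1 led it in all 3 livers with at least 30 lambda variable reads, with 46 of 57 reads in 4_5, 167 of 187 in 5_1 and 55 of 61 in 5_3. Iglv2 followed in each, with 19 reads in 5_1. As Iglv1 and Iglv2 differ at 4 of the 150 bases shown, a read over a shared stretch cannot be assigned between them.

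In muscle at 40 d Ighm was the most abundant member in every muscle, with vehicle levels of 60.6 FPKM in 2_1, 53.7 in 2_3, 48.5 in 2_4, 77.6 in 2_5, 33.2 in 3_2 and 49.1 in 6_1. Treated levels were 42.6 in 4_5, 48.5 in 5_1, 47.0 in 5_2, 33.4 in 5_3, 36.5 in 5_4 and 33.7 in 5_5. Treated muscles lay in the lower part of the vehicle range and the groups overlapped. The log2 fold change was −0.38 (SE 0.17, unadjusted p 0.0473, limma adjusted p 0.9991).

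Igkc was far lower there. In vehicle muscles it was 2.11 FPKM in 2_1, 5.56 in 2_3, 3.68 in 2_4, 12.9 in 2_5, 1.09 in 3_2 and 1.36 in 6_1. In treated muscles it was 8.48 in 4_5, 3.73 in 5_1, 3.22 in 5_2, 19.3 in 5_3, 7.001 in 5_4 and 10.2 in 5_5. The highest were treated 5_3 and vehicle 2_5, and the groups overlapped. The log2 fold change was 0.95 (SE 0.47, unadjusted p 0.0641, limma adjusted p 0.9991).

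These 2 genes were the only members tested in muscle, and 0 of 2 passed, beside 0% of the 11708 genes tested. At an unadjusted p under 0.05 there were 451 genes in muscle, 1 of them a member, Ighm. None of the 2 had separate groups, beside 0.256% of all genes. Another 112 members had reads in at least 1 muscle at levels too low for the test, and 117 had none.

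The ratio of Ighm to Igkc set muscle apart from liver. It was 1.73 to 36.1 in the 40 d muscles and 0.0667 to 0.640 in the 40 d livers, with no overlap over 12 libraries of each. As a ratio taken within a library, it does not depend on the scaling that differs between the tables. Heavy variable reads were also scarce beside Ighm: 0.142 to 7.56 per 100 Ighm reads in muscle against 14.9 to 153.1 in liver. Kappa variable reads per 100 Igkc reads were similar in both tissues, with group medians of 44.8 to 65.6. No annotated exon of another gene overlaps Ighm in GENCODE M21, and whether its muscle reads come from rearranged heavy chains was not tested, as exon-level counts were not used here.

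Other heavy classes were scarce in muscle. Ighm made up 93.7% to 98.9% of heavy constant FPKM. Ighg2c was at 0.385 to 2.47 FPKM with vehicle and 0.108 to 0.808 with the combination, and Igha at 0 to 0.880 and 0.0247 to 1.23 FPKM. Ighd lay at 0.178 to 0.520 FPKM in all 12 muscles. Ighg1 and Ighg3 had reads only in treated muscle 4_5, with 6 and 23 reads, and Ighe and Iglc4 had none in any. Vehicle muscle 2_4 stood out for lambda, with Iglc1 at 3.02 FPKM and 48.7% of its light-chain constant FPKM from lambda, beside at most 23.6% in the other 11.

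Single variable genes dominated several muscle libraries. In treated muscle 5_3, Igkv4-86 took 149 of 160 kappa variable reads (93.1%, 95% Wilson interval 88.1% to 96.1%), and Ighv4-1 took 86 of 100 heavy variable reads (86%, interval 77.9% to 91.5%). Igkv4-86 (chr6:68910411-68910973) stood at 18.8 FPKM, nearly the level of Igkc in that library (19.3 FPKM), and Ighv4-1 (chr12:113948282-113948796) at 9.89 FPKM. Neither gene had a read in any of the other 11 muscles. Their closest relatives by sequence, Igkv4-59 and Ighv11-2, had 0 reads in 5_3, and the second kappa gene there was Igkv4-90 with 6 reads.

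In the liver of the same number Ighv4-1 was absent and Igkv4-86 was scarce. Igkv4-86 had 2 reads and Ighv4-1 none in liver 5_3, and over all 12 livers they had 3 and 21 reads. Most of the few liver reads of Igkv4-86 were thus in liver 5_3. In muscle 5_3 the IgG, IgA and IgE genes summed to 0.00927 of the Igkc level, the lowest ratio among the 24 libraries at 40 d, where the other muscles had 0.052 to 0.819. Ighm made up 98.5% of its heavy constant FPKM.

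Vehicle muscle 2_5 likewise had a dominant kappa gene and a dominant heavy gene. Whether the heavy and kappa reads of a muscle came from the same cells was not tested. Igkv17-127 took 47 of 72 kappa variable reads (65.3%, 95% Wilson interval 53.8% to 75.2%) and Ighv1-74 took 22 of 33 heavy variable reads (66.7%, interval 49.6% to 80.3%). Both had 0 reads in the other 11 muscles and 0 in liver 2_5, and their near copies Igkv17-121 and Ighv1-69 had 0 reads in that muscle. Muscle 2_5 also had the highest Ighm, 77.6 FPKM, and the highest Ighg2c, 2.47 FPKM, of the 12.

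In 4 further muscles a leading kappa gene could be named from at least 30 reads. Igkv4-72 took 27 of 48 in treated 5_4 (56.2%), Igkv1-110 took 24 of 44 in treated 5_5 (54.5%), Igkv10-94 took 15 of 34 in treated 5_1 (44.1%) and Igkv1-99 took 15 of 41 in vehicle 2_3 (36.6%). Every one of these shares was above the highest kappa share of any 40 d liver, 20.0%. A different kappa gene led each of these 6 muscles. The other 6 had 3 to 27 kappa variable reads, too few to name a leading gene with any precision.

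**Figure D3:**
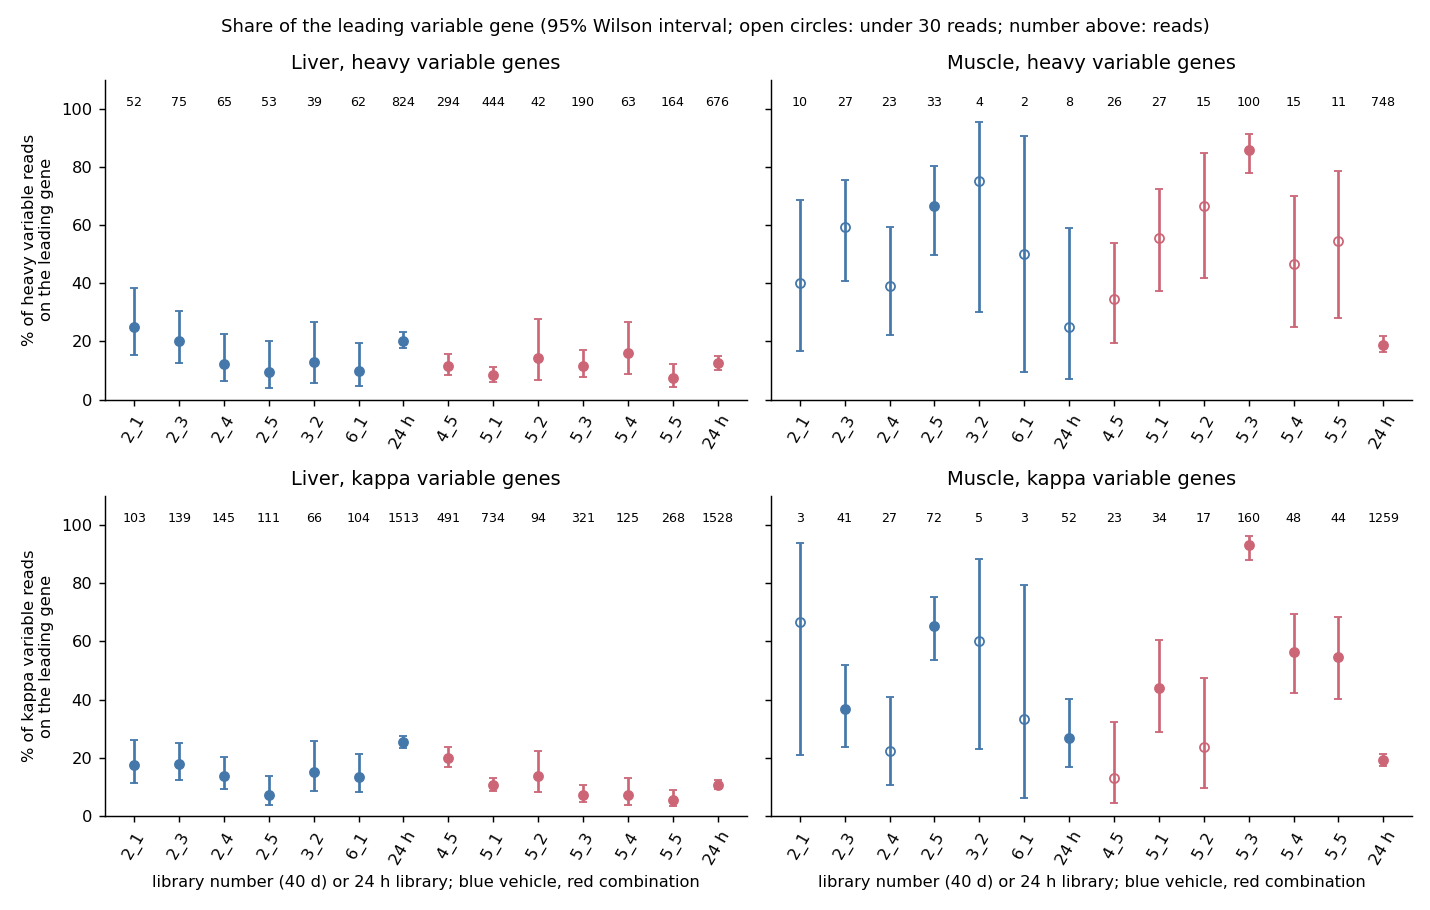
Share of the leading heavy (top) and kappa (bottom) variable gene among all variable reads of its chain (%), by library, for liver (left) and muscle (right), with 95% Wilson intervals. Open circles mark libraries with under 30 reads, and the numbers give the reads. All 40 d livers lie at or below 25%, and muscle 5_3 reaches 86% and 93.1%.

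The difference in breadth held over all variable genes. Of the variable genes with reads, 62 were found in 1 muscle library only, against 28 in 1 liver library only. Of the genes with at least 10 reads in a library, 12 of 16 in muscle had at least 90% of their reads from 1 library, against 1 of 55 in liver. Muscle had fewer variable reads, 836 in all against 4677, which by itself lowers the number of libraries in which a gene is seen.

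**Figure D4:**
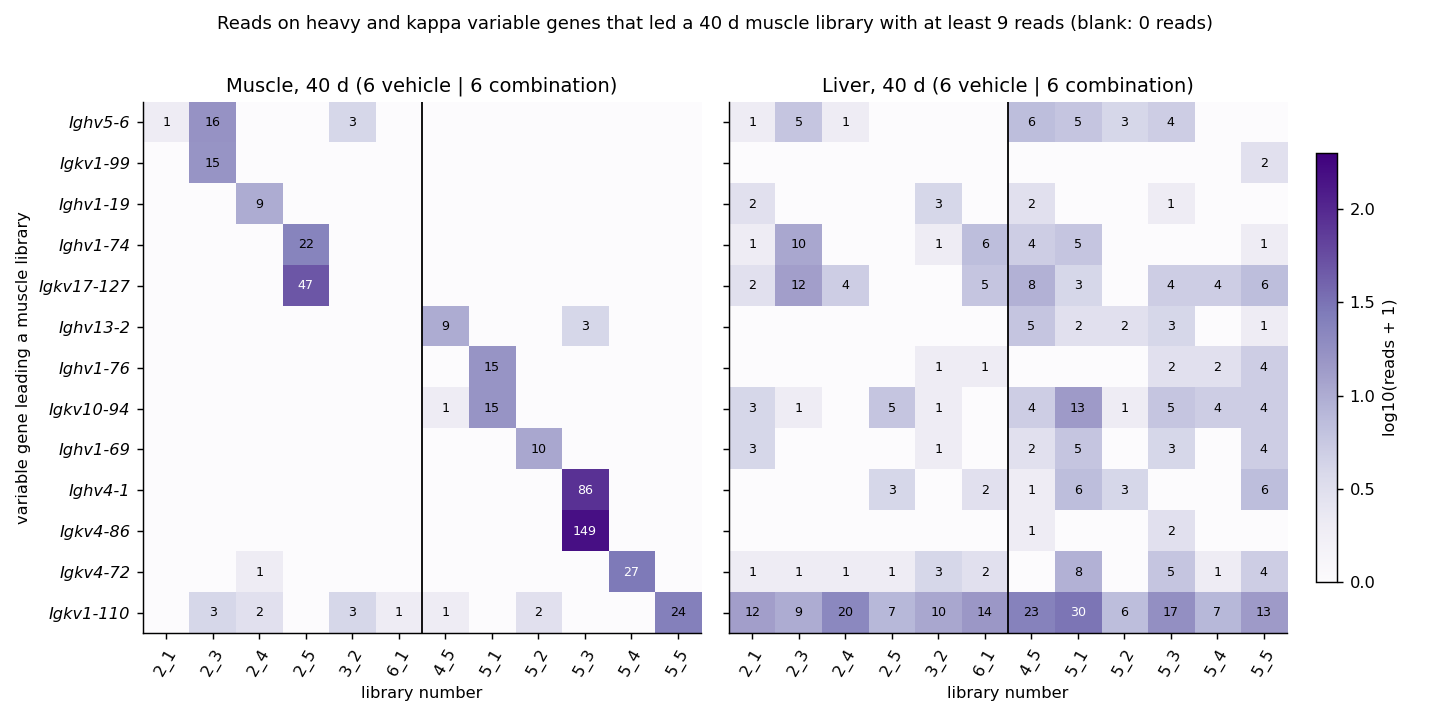
Reads on the 13 heavy and kappa variable genes that led a 40 d muscle library with at least 9 reads, in every 40 d muscle (left) and liver (right) library, colour on a log10(reads + 1) scale. Numbers are reads and blank cells hold 0. Igkv4-86, with 149 reads in muscle 5_3, has 3 in all livers, while Igkv1-110 occurs in all 12 livers.

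Variable gene usage was compared between muscle and liver with the Morisita-Horn index, which is 0 for libraries that share no gene and 1 for identical usage. For kappa the median index was 0.171 between libraries with the same number and 0.160 between libraries with different numbers. For heavy genes it was 0.047 and 0.068. These medians include muscles with as few as 3 kappa and 2 heavy variable reads. Number 4_5 had the liver of its own number as the closest of 12 for both chains, and numbers 5_3, 2_4 and 3_2 had it for kappa only. The kappa index of 5_3 was just 0.018, and muscles 2_4 and 3_2 had 27 and 5 kappa variable reads. For 4_5 the values were 0.612 for kappa and 0.277 for heavy. Muscle 4_5 had just 23 kappa and 26 heavy variable reads. The hepatocyte gene Alb was highest in muscles 3_2, 4_5 and 2_4, at 98.03, 14.2 and 11.6 FPKM. It was at 4.88 FPKM in 5_3 and at most 9.24 in any other muscle. The part of liver RNA in the likeness of these muscles to a liver was not tested. The labels do not say that a number shared by a liver and a muscle is 1 mouse.

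Jchain, a transcript of antibody-secreting cells, was high in the livers with high Igkc. Jchain, which encodes the chain that joins IgM and IgA into polymers, was at 0.665 to 1.96 FPKM in vehicle livers. In treated livers it was 5.52 in 4_5, 10.8 in 5_1, 1.59 in 5_2, 6.18 in 5_3, 1.48 in 5_4 and 4.12 in 5_5, high in the same 4 livers as Igkc. Its log2 fold change was 1.11 (SE 0.33, limma adjusted p 0.1884).

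Across the 12 livers Igkc and Jchain correlated with Pearson's r = 0.94 (permutation p = 2e-05, adjusted 0.00014 over 7 correlations) and Spearman's rho = 0.90 (permutation p = 0.00011, adjusted 0.00077). Without 5_1 and 5_3, the 2 livers farthest from the Jchain median, r was 0.92. Within the vehicle livers r was 0.85 (exact permutation p = 0.036, adjusted 0.126, n = 6) and within the treated livers 0.92 (exact permutation p = 0.0056, adjusted 0.039, n = 6). Its direction was the same within each treatment.

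Cd79a, a subunit of the B cell receptor, was at 0.0758 to 1.10 FPKM in vehicle and 0.183 to 1.85 in treated livers. Its correlation with Igkc was r = 0.75 (permutation p = 0.0056, adjusted 0.013) and rho = 0.67 (permutation p = 0.02, adjusted 0.048) over 12 livers. Without 4_5 and vehicle 2_4 r stayed at 0.75, while within the vehicle livers it was 0.11 (exact permutation p = 0.819, n = 6) and within the treated livers 0.89 (exact permutation p = 0.015, adjusted 0.053, n = 6). It therefore did not hold within vehicle livers. Hbb-bs, a haemoglobin chain that marks blood left in the tissue, gave r = 0.22 (permutation p = 0.484) and rho = 0.35 (permutation p = 0.267) with Igkc. Within vehicle livers r was 0.68 (exact permutation p = 0.117, n = 6) and rho 0.89 (exact permutation p = 0.033, adjusted 0.117), the same rho as that of Igkc with Jchain there. Within treated livers r was −0.46 (exact permutation p = 0.368, n = 6) and rho −0.43 (exact permutation p = 0.419). Without 5_4 and 3_2 r was 0.07. Hbb-bs was highest in 5_4 and 5_2, at 1444 and 1035 FPKM, the treated livers with low Igkc.

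In muscle Igkc and Jchain correlated with r = 0.80 (permutation p = 0.0011, adjusted 0.004) and rho = 0.84 (permutation p = 0.0011, adjusted 0.0038). This rested in part on 5_3 and 2_5, the muscles with dominant variable genes: without them r was 0.60 (permutation p = 0.072, adjusted 0.127) and rho 0.72 (permutation p = 0.023, adjusted 0.066). Within vehicle muscles r was 0.94 (exact permutation p = 0.0056, adjusted 0.039, n = 6) and within treated muscles 0.75 (exact permutation p = 0.057, n = 6). Jchain itself was at 0.105 to 0.784 FPKM in vehicle muscles and 0.209 to 1.57 in treated ones, highest in 5_3. Cd79a and Hbb-bs gave r = −0.05 (permutation p = 0.881) and r = 0.29 (permutation p = 0.366), with rho of 0.13 and 0.31. Igkc in liver and in muscle of the same number gave r = 0.51 (permutation p = 0.094, adjusted 0.164) and rho = 0.57 (permutation p = 0.059, adjusted 0.102), and without liver numbers 4_5 and 5_1 r = 0.65 (adjusted p = 0.088). Within vehicle numbers r was 0.12 and within treated numbers 0.47 (exact permutation p = 0.789 and 0.351, n = 6 each).

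**Figure D5:**
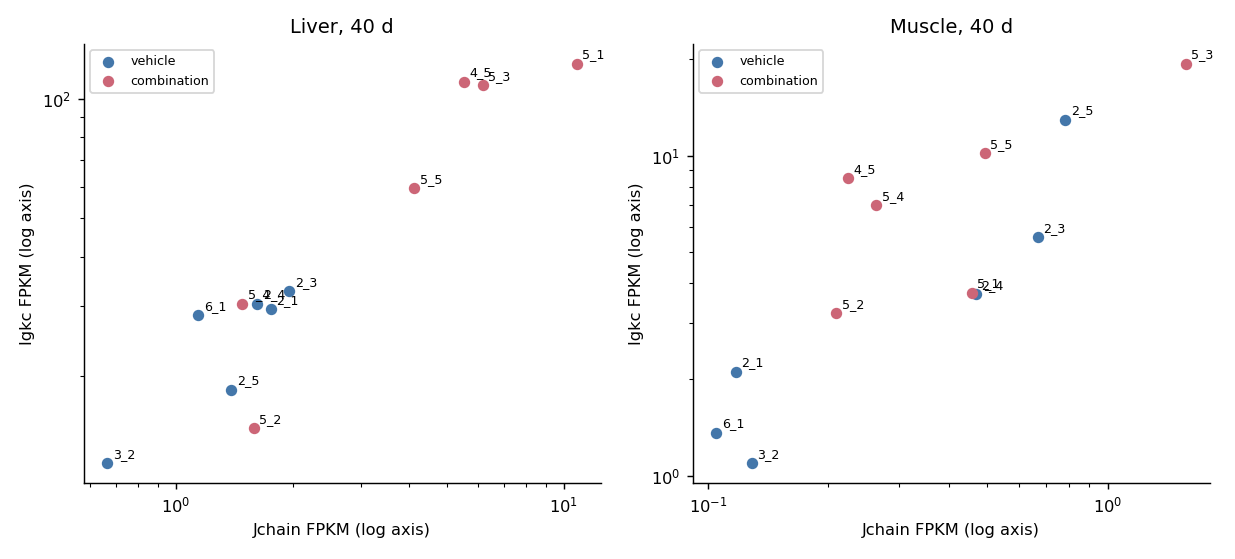
Igkc against Jchain (FPKM, logarithmic axes) in the 12 livers (left) and 12 muscles (right) at 40 d, each point 1 library with its number. Treated livers 4_5, 5_1, 5_3 and 5_5 lie above the vehicle livers on both axes, and muscles 5_3 and 2_5 have the highest values of both genes in muscle.

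Of 16 plasma cell genes, 6 could be tested in liver and none passed. All 6 were higher in mean with the combination, beside 48.97% of all genes tested. Mzb1, an endoplasmic reticulum factor of antibody-secreting cells, was at 0.247 to 0.921 FPKM with vehicle and 0.412 to 2.58 with the combination, with 2.28 in 4_5, 2.58 in 5_1 and 1.58 in 5_3, and 0.886 in 5_5, inside the vehicle range. Derl3, Tnfrsf13b and Tnfrsf17 were at means of 0.444, 0.501 and 0.0113 FPKM with vehicle and 1.28, 0.724 and 0.0324 with the combination. Tnfrsf17 rested on 1 read in vehicle 2_4 and 3 in treated 4_5, with none in any other liver. Slamf7 and Ccr10, from the same list, were lower in mean with the combination. Slamf7 ran from 0.512 to 1.04 FPKM with vehicle and from 0.558 to 1.07 with the combination. Derl3 was highest in 5_5 and 5_3, at 2.71 and 2.12 FPKM, and at 0.479 in 5_1, the liver with the highest Igkc. The summed plasma cell list, which also holds genes of hepatocytes such as Xbp1 and Sdc1, was at 155.9 to 189.6 FPKM in vehicle and 164.7 to 264.9 in treated livers.

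Of 17 B cell genes, 16 of them in the table, only Cd79b, the partner of Cd79a, was tested in liver, at 1.09 ± 0.33 and 2.27 ± 1.56 FPKM (SD, n = 6 each, limma adjusted p 0.3356). Cd22 and Ms4a1, both surface proteins of B cells, were at means of 0.628 and 0.106 FPKM with vehicle and 0.920 and 0.156 with the combination. The list did not move as one: Ebf1, Fcmr, Fcer2a and Pax5 were lower in mean with the combination. These genes were at most 0.549 FPKM in any liver. The summed B cell list was at 3.88 to 6.13 FPKM in vehicle and 4.59 to 14.1 in treated livers, and in muscle at 3.69 to 5.68 and 4.46 to 5.98. Ms4a1 stayed at or below 0.0819 FPKM in every 40 d muscle. The part of cell numbers in the immunoglobulin levels was not tested.

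Other companion genes were read from the same fit, and none of their lists held a gene that passed in either tissue. T cell genes had 4 of 14 tested in liver, with Trbc2 at 2.79 and 3.41 FPKM, and 2 of 14 in muscle. With the combination all 4 were higher in mean in liver and 0 of the 2 in muscle. Among receptors and transporters of immunoglobulin, 8 of 9 were tested in liver. Pigr, the receptor that carries polymeric IgA across epithelia, was at 112.3 ± 26.3 and 168.0 ± 36.5 FPKM (SD, n = 6 each, log2 fold change 0.58, limma adjusted p 0.1819), and its highest value, 224.0 FPKM, was in 5_2, a liver with low immunoglobulin. Fcgrt, the neonatal Fc receptor that recycles IgG, was at 89.9 ± 8.12 and 87.5 ± 12.03 FPKM (SD, n = 6 each, limma adjusted p 0.881). Liver 4_5 stood apart in other genes too, with Cxcl13, a chemokine that draws B cells, at 108.2 FPKM against 0.091 to 7.89 in the other 11 livers, and Acta1 at 2.99 against at most 0.217. Muscle 4_5 likewise had the highest Cxcl13 of the muscles, 66.4 FPKM against 1.32 to 14.7. The part of these in its immunoglobulin level was not tested.

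Of 7 red cell genes tested in each tissue, 6 were higher in mean with the combination and none passed. Of all genes tested, 48.97% were higher in liver and 48.63% in muscle. Hbb-bs was at 426.7 ± 197.2 and 796.2 ± 411.4 FPKM in liver (limma adjusted p 0.3774) and 320.9 ± 86.9 and 703.4 ± 405.6 in muscle (limma adjusted p 0.9991, SD, n = 6 each). Blood carries B cells as well as red cells, and the part of residual blood in the immunoglobulin levels was not tested beyond the correlations above.

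At 24 h, with 1 library per tissue and treatment, no test was possible and all values describe single libraries. Both livers held far more immunoglobulin reads than any 40 d liver: Igkc had 2887 reads with vehicle and 2922 with the combination, against 115 to 1227 at 40 d. Igkc stood at 334.7 FPKM with vehicle and 389.9 with the combination, Ighm at 121.7 and 183.9 and Igha at 21.3 and 9.60 FPKM. Ighg2c was at 18.5 and 15.2 FPKM and Ighg2b at 12.99 and 9.33. Levels of the 24 h and 40 d tables were scaled separately and are not compared further.

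Of the 27 members with a mean of at least 5 FPKM in the 24 h livers, 6 were at least 2-fold higher with the combination on the log2(FPKM + 1) scale, beside 0.777% of all 6825 genes at that level, and 2 were at least 2-fold lower, beside 0.469%. The 3 largest log2 ratios were those of Igkv6-17 (15 and 74 reads), Igkv4-63 (11 and 52) and Ighv9-3 (18 and 52), at 2.11, 1.97 and 1.47. The 3 smallest were those of Igha (−1.07), Igkv3-2 (−1.02) and Ighv1-53 (−0.94). The median over the 27 was 0.44, beside 0.09 over all genes at that level. All 6 that were at least 2-fold higher reached 5 FPKM only in the treated library. Igkv12-44 (8.46 FPKM with vehicle and 0.177 with the combination) and Igkv3-1 (8.76 and 0.593) differed by more but had means below 5 FPKM, so the level rule bears on the counts and the median, and they are no evidence of direction.

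Both 24 h livers were led by the same kappa gene. Igkv3-2 took 384 of 1513 kappa variable reads with vehicle (25.4%, 95% Wilson interval 23.2% to 27.6%) and 162 of 1528 with the combination (10.6%, interval 9.16% to 12.2%). Ighv1-53 led the heavy genes with vehicle (167 of 824, 20.3%) and Ighv1-26 with the combination (84 of 676, 12.4%). Their usage was alike, with a Morisita-Horn index of 0.77 for heavy and 0.73 for kappa genes.

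The 24 h muscles differed widely from each other. Igkc was at 9.07 FPKM (76 reads) with vehicle and 307.5 FPKM (2455 reads) with the combination, and Ighm at 52.6 and 244.8 FPKM. Ighg2c was at 1.58 and 15.6 FPKM and Iglc1 at 1.12 and 1.47, while Ighg2b was at 0.687 and 0.423. The vehicle library lay within the range of the 40 d muscles in its Ighm to Igkc ratio, 5.80, and the treated library at 0.796 lay below it.

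All 15 members with a mean of at least 5 FPKM in the 24 h muscles were at least 2-fold higher with the combination, beside 2.35% of all 6763 genes at that level, and 0 were lower, beside 0.828%. Of the 15, 2 (Ighm and Igkc) reached 5 FPKM in the vehicle library and the other 13 only in the treated one, so the level rule largely fixed this count and it is no evidence of direction. The 3 largest log2 ratios were those of Igkv4-70 (0 and 209 reads, 5.24), Igkc (4.94) and Igkv3-5 (4 and 241 reads, 4.69). The 3 smallest were those of Igkv10-96 (3.25), Ighg2c (2.69) and Ighm (2.20). With 1 library per treatment, a difference of treatment and a difference of these 2 samples cannot be told apart.

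In the treated 24 h muscle Igkv3-5 led with 241 of 1259 kappa variable reads (19.1%, 95% Wilson interval 17.1% to 21.4%), followed by Igkv4-70 with 209, and Ighv1-72 led the heavy genes with 141 of 748 (18.8%, interval 16.2% to 21.8%). Effective numbers were 11.34 for kappa and 11.92 for heavy genes. The 40 d muscles held 3 to 160 kappa variable reads, and 4_5, with 23, had an effective kappa number of 25.3, so depth limits any comparison of breadth with them. Heavy variable reads were 10.8 per 100 Ighm reads, against 0.512 in the vehicle muscle. Its index of likeness to the liver of the same treatment was 0.37 for kappa and 0.55 for heavy genes, and to the vehicle liver 0.35 and 0.54.

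Of 16 B cell genes, 10 were higher and 6 lower in the treated than in the vehicle 24 h muscle, and of 16 plasma cell genes 11 were higher and 5 lower. Jchain was at 0.81 FPKM with vehicle and 16.9 with the combination, Mzb1 at 0.84 and 1.62 and Cd79a at 0.17 and 1.19. Lower in the treated muscle were, among others, the B cell factor Ebf1 (5.25 FPKM with vehicle and 4.69 with the combination), Cd38 (7.76 and 5.62), Tnfrsf17 (1.40 and 0.327) and Tnfrsf13b (0.649 and 0.611). The summed B cell list was at 8.04 and 10.2 FPKM, and the summed plasma cell list at 80.7 and 100.1. T cell genes summed to 11.4 and 19.0 FPKM, with Trbc2 at 0.46 and 2.31, and 12 of the 14 were higher and 2 lower. Hepatocyte genes summed to 119.5 FPKM in the vehicle muscle and 17.9 in the treated one, and red cell genes to 1311 and 1145 FPKM. All 6 skeletal muscle genes were lower in the treated muscle, with sums of 51760 FPKM with vehicle and 31930 with the combination. The 2 samples thus differed in muscle transcripts too. The part of lymphoid tissue beside the muscle in these values was not tested.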

How the data were processed

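RNA from liver and muscle was extracted with Trizol and made into libraries with the NEBNext Ultra kit, per the labels' protocols. The authors deposited FPKM values in 3 tables, per the file headers, with the gene length of each gene, and replicates were not pooled. Builds GRCm38 and mm10 come from the submitters' processing notes, while no aligner, no counting tool and no strand setting is given in the sources used here. Each FPKM value times gene length was a whole multiple of 1 read (100% of values, tolerance 0.01), so reads were recovered for shares and intervals. Gene positions matched GENCODE M21 for 231 of 231 members.

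Groups came from the labels. Within each 40 d table limma 3.58.1 (R 4.3.3) tested log2(FPKM + 1), a pseudocount of 1, 6 against 6, two-sided, adjusted over all genes reaching 1 FPKM in 6 or more libraries, at a threshold of 0.05; it was checked on simulated data. The labels number the libraries without saying which animals they come from, and p-values measure the spread between these libraries, which may be technical. Correlations used 100000 permutations with SciPy 1.17.1, or all 720 orders of 6 libraries. Sequence identity came from edlib 1.3.9.post1. Named genes were all constant genes, leading and top 5 variable genes per chain, the 3 largest and 3 smallest 24 h ratios and the first 5 genes of each companion list; any other gene was named after its values were seen, and some list genes are not reported here. The members and lists were chosen with earlier results of these data known. Alternatives were another pseudocount, no filter on low values, limma's voom on reads, and leaving out each library. Mice given either compound alone, which the labels mention, were not analysed here.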

Additional observations from a re-analysis of the deposited data

Results flagged for a closer look

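Values of single libraries were compared with the other 5 of their group by Dixon's test at the 95% level, over 63 groups of 6 libraries. Chance flags about 1 in 20 groups when values are normally distributed and groups are independent. Several flagged groups held values of 0, and some measures depend on one another, so that rate does not apply here. Where the other 5 values are all 0, any read is flagged. In all, 14 values stood apart, and this number is not evidence of an excess.

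Treated muscle 5_3 stood apart in its summed variable-gene level, 32.5 FPKM against 5.81 to 9.33 in the other treated muscles, and in Jchain, 1.57 FPKM against 0.209 to 0.492. It is the muscle in which Igkv4-86 and Ighv4-1 took most variable reads.

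Treated muscle 4_5 stood apart in class-switched genes. Ighg3 was at 0.517 and Ighg1 at 0.131 FPKM with none in the other 5, Ighg2b at 0.211 FPKM against at most 0.0246, and Ighm made up 93.7% of heavy constant FPKM against 97% to 98.9%.

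The lambda genes gave 7 of the 14. Iglc1 was at 12.4 FPKM in treated liver 5_1, with lambda at 13.4% of light-chain constant FPKM, at 3.16 in vehicle liver 2_4, at 3.02 in vehicle muscle 2_4 and at 0.562 in treated muscle 5_4. Iglc2 was at 0.48 in vehicle muscle 2_4 and Iglc3 at 0.523 in vehicle muscle 2_1. Igha was at 0.88 FPKM in vehicle muscle 2_3.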

How the results depend on the processing

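None of the members passed in either tissue under any alternative run (pseudocount 0.1, no filter, voom on reads, each library left out). The number of all liver genes passing was 28 in the main setting, 25 with a pseudocount of 0.1, 29 with voom and 0 without the filter, and 0 to 83 without single libraries, so the number of calls in liver rests on single libraries: it moved by over 1.5 times without any of 11, all but treated 4_5, with 0 without treated 5_3 or vehicle 2_3 and 83 without treated 5_2. In muscle it was 0, and 0 to 1 without single libraries (1 without vehicle 6_1). The log2 fold change of Ighm in liver, 0.01, changed sign with a pseudocount of 0.1 (−0.0039), with voom (−0.005) and within a range of −0.16 to 0.23 without single libraries (−0.16 without 4_5, −0.05 without 5_3, −0.05 without 2_5, −0.04 without 2_4, −0.03 without 5_1 and −0.03 without 6_1). That of Igkc ranged from 1.05 to 1.64 and that of Igha from 1.11 to 1.66. The ratio of summed constant genes ranged from 2.27 to 3.08 in liver and from 0.77 to 0.93 in muscle without single libraries. From variable genes the muscle ratio was 1.71 in place of 0.83, since Ighm makes up most constant-gene FPKM there. The median share of the leading kappa gene in muscle was 55.4%, 54.5% to 56.2% without single libraries, and 93.1% with at least 100 reads, where 1 library is left.

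Correlations with Igkc changed within groups or without 2 libraries. With Jchain, r was 0.85 in vehicle livers, 0.60 in muscle without 5_3 and 2_5, and 0.75 in treated muscles, none past the threshold. With Cd79a, r was 0.11 in vehicle livers and 0.89 in treated livers, and in muscle it turned from −0.05 to 0.01 with a pseudocount of 0.1, 0.30 without 2 libraries and 0.33 in treated muscles. With Hbb-bs, r turned to −0.46 in treated livers and −0.05 in treated muscles. The cause of these changes was not tested.

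No paired analysis was possible because vehicle and combination libraries share no number. Depth limits the variable genes most: a muscle library held 5 to 264 variable reads at 40 d.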
